A study of Mus musculus with 16 samples.

Results

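Ago2 HITS-CLIP regions that lie antisense to genes numbered 28902 of 962453 placed regions (3.00%). A region is a run of 5-nt bins that the authors' dCLIP comparison put in the same cluster and the same state. A region was counted as antisense when it shared no base with a gene span of the deposited gene table on its own strand and at least 1 base with a gene span on the other strand. The cells were activated splenic B cells of mice of the strain labelled C57B6L/J, in 2 genotypes called KO and Flox, and the series title names miR-221-3p and miR-222-3p as the miRNAs whose targets were sought. Culture was the same in all groups: 4 days with anti-CD40 at 500 ng/ml, which stands in for T cell help, and the cytokines IL-4 at 25 ng/ml and IL-21 at 10 ng/ml. For each genotype there were 4 libraries of RNA-seq and 4 of Ago2 HITS-CLIP, 16 in all. The age and sex of the mice, the Cre line behind the KO and whether each library came from its own mouse were not given in the sources used here.

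Ago2 is the Argonaute protein that holds a miRNA and pairs it, mainly through the seed at miRNA bases 2 to 8, with sites in target RNAs, most of them in mRNA. HITS-CLIP crosslinks RNA to the protein with ultraviolet light, pulls the protein down and sequences the RNA fragments that stay attached, on the strand of the RNA. A fragment antisense to a gene therefore comes from an RNA read off the other DNA strand: an antisense or divergent transcript, a transcript that runs on past the end of a neighbouring gene, a gene the annotation lacks, or a fragment placed at the wrong copy of a repeated sequence.

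The deposited CLIP output joins the libraries of each condition, so its values carry no error between samples and no test was made on them. Its headers do not say which condition is KO. Tags are therefore the sum over both conditions in the highest 5-nt bin of a region, and a region's difference, the mean of dCLIP's difference score over its bins, is given by sign only. dCLIP puts each bin in a state of no difference, in a lower state (every such region had a mean difference below 0) or in an upper state (every one above 0). Over all regions 33.1% were in the lower state, 9.28% in the upper and 42.4% in either. The RNA-seq libraries held 22947689 to 39236132 reads (KO) and 25421025 to 39616596 reads (Flox). On the first principal component, which held 33.5% of the variance, KO 1 and KO 3 lay farthest from the Flox libraries. All 7 B cell markers summed here (among them Cd79a and Pax5) had a mean of at least 10 normalized counts, and their summed level was 316941 to 419805 per library. The summed level of 5 T cell markers was 5.2 to 22.7 per library, with none at a mean of 10. For 5 myeloid markers it was 47.0 to 102.9 and for 3 NK cell markers 93.9 to 205.8, with 2 and 1 of them at a mean of at least 10. Mir221 was listed at 0 in all 4 KO libraries and in Flox 1 and 2, at 3.5 in Flox 3 and at 1.0 in Flox 4, and Mir222 at 0 in all 8, so these rows of short hairpins do not check the deletion.

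The deleted miRNAs are shown first because the seed is what a target search would use. The mature sequences are RefSeq's (GRCm38.p6), both from the minus strand of chromosome X, with the seed in capitals, and they share it.
miR-221-3p: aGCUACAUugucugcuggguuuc
miR-222-3p: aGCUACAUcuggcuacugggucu

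Sequence was at hand for 202 antisense regions, those that lay wholly inside a RefSeq promoter window, which runs from 250 bases before a gene's start to 50 after it. The 7-base DNA match to the shared seed, ATGTAGC, occurred on either strand in 1 of these 202 (0.495%). It occurred in 0.21% of all 35-base stretches cut from the 32851 promoter windows and in 2.11% of whole windows. The region with the match lay on the minus strand at chr3:152395415-152395494, across the start of Zzz3, a subunit of a histone acetyltransferase complex. It had 35 tags and a mean difference of -0.18, and is printed on its own strand with the match in capitals.
Zzz3 antisense region: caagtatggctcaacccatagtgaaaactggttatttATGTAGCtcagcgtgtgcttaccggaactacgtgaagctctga

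The regions that ran against a gene at its start are shown because divergent transcription, a known source of antisense RNA, begins near gene starts. In all, 179 antisense regions shared a base with the promoter window of a gene on the opposite strand, and 135 lay wholly inside one. Of these 135, 106 were centred before the RefSeq start and 29 at or after it. Most of the window lies before the start, so an even spread would also put most regions there. The split therefore shows no preference for the side before the start and says nothing about divergent transcription. The 135 regions had a median of 50 tags, and 64 were in the lower state, 71 in the state of no difference and 0 in the upper state. Their median GC content was 74.3%, against 52.7% over all promoter windows. Each sequence below is printed 5′ to 3′ on the strand of the Ago2 region.
Steap2, chr5:5694080-5694119, plus strand: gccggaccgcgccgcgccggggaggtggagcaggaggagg
Rhog, chr7:102250130-102250159, plus strand: aagtgggggggtgggggccgggccggcagg
Naa15, chr3:51415830-51415869, minus strand: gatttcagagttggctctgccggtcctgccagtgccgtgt
Cdkn1a, chr17:29093650-29093679, minus strand: ctcgctggcccgccctcccctctgggaatc
Sec61b, chr4:47474635-47474664, minus strand: ctctggcaccgccccccggccggctggcag

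The region at Steap2, a metalloreductase gene listed at 0 in all 8 RNA-seq libraries, had 483 tags, the most of the 135, and a difference of -0.01. The region at Rhog, a small GTPase with a mean of 3166 normalized counts, had 210 tags and a difference of -0.19. At Naa15, a subunit of the main N-terminal acetyltransferase, 170 tags lay 167 bases before the start. At Cdkn1a, the cell cycle inhibitor p21, 165 tags lay 105 bases before it. At Sec61b, part of the channel that passes proteins into the endoplasmic reticulum, 160 tags were centred 12 bases before it. Naa15, Cdkn1a and Sec61b had means of 6103, 3159 and 3172 normalized counts, so in this group a silent gene and active genes both had opposite tags at the start.

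A further 93 antisense regions shared a base with the RefSeq promoter window of a gene on their own strand, which the deposited table starts elsewhere or lacks. The strongest wholly inside such a window, with 315 tags and a difference of 0.18, lay at the start of the histone gene H2bc18. The next, with 200 tags, was 115 bases long and lay before the start of Zfas1, a noncoding RNA that runs opposite Znfx1. A region of 151 tags before A930009A15Rik is shown because its sequence is nearly all adenine, with a GC content of 4.00%.
A930009A15Rik, chr10:115569770-115569794, plus strand: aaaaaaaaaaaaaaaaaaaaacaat

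Antisense regions held 3.08% of all tags. Their median was 47 tags (quartiles 30 and 74.8), above the median of 27 for regions in a gene on the same strand and close to the 45 of regions outside genes. They were short, with a median width of 35 nt against 55 nt for same-strand regions. The share with at least 1000 tags was 0.495% (143 regions), between the 0.306% of same-strand regions and the 0.747% of regions outside genes. Mutations, which crosslinking can leave in the reads, came to 1.34 per 1000 tags in antisense regions, 1.29 outside genes and 0.292 on the same strand. In median tags, median width and mutations, antisense regions were thus nearer to regions outside genes than to those in genes, whereas by the share with at least 1000 tags they were nearer to same-strand regions.

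Between the 2 CLIP conditions, antisense regions were in the lower state more often than regions at large and about as often as regions outside genes. There were 13429 (46.5%) in it, where the share was 33.1% over all regions and 43.1% outside genes. The upper state held 1570 (5.43%), against 9.28% of all regions and 6.68% of those outside genes. Together 51.9% of antisense regions were in a differential state, against 42.4% of all regions and 49.8% of those outside genes. The median difference was -0.11 in antisense regions, -0.03 in same-strand regions and -0.08 outside genes.

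The excess over same-strand regions depended on the tags. Between 50 and 100 tags, 51.2% of antisense regions, 24.9% of same-strand regions and 47.4% of regions outside genes were in the lower state. Under 20 tags the order was the other way, 30.5% of antisense against 44.5% of same-strand regions, with 35.8% outside genes. Between 500 and 1000 tags the shares were 21.5%, 15.5% and 26.5%. From 4000 tags up, 25 of 26 antisense regions (96.2%) were in the lower state, beside 96 of 109 outside genes (88.1%) and 82 of 148 on the same strand (55.4%). The strongest regions of every class were thus mostly in the lower state, antisense ones included.

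**Figure D1:**
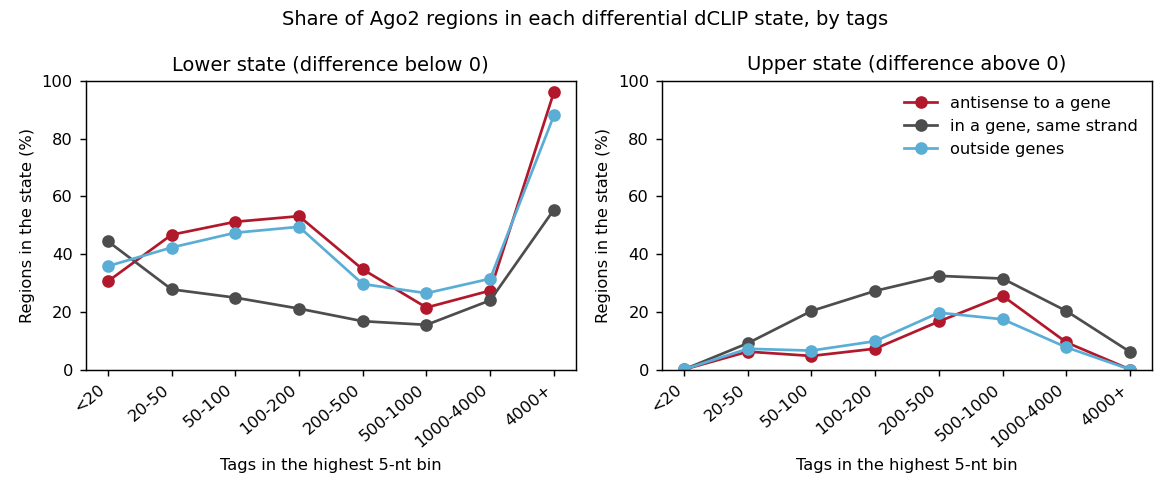
Share of regions (%) in the lower (left) and upper (right) dCLIP state, by tags in the highest 5-nt bin, for antisense regions, regions in a gene on the same strand and regions outside genes. Antisense regions follow those outside genes closely, and at 4000 tags and more 96.2% of antisense regions are in the lower state.

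The 12 antisense regions with the most tags held 6513 to 9262 tags, and all 12 were in the lower state with differences between -0.30 and -0.21. None lay within 2000 nt of a same-strand gene of the table, the closest being 2196 nt away. None overlapped a RefSeq tRNA gene or pseudogene. Among RefSeq genes of known strand, 1 (Gm1604a) covered a region on the same strand, the one opposite Rsph3a. The first, with 9262 tags, lay at chr16:18533195-18533329 on the minus strand, opposite Gnb1l, which encodes a WD-repeat protein. The second, with 8731 tags, lay at chr2:73867870-73868029 on the plus strand, opposite Atf2, a transcription factor of the CREB family. The third, with 8466 tags, lay at chr9:118674950-118675014 on the minus strand, opposite Itga9, which encodes an integrin alpha chain. The fourth, with 7207 tags, lay at chrX:87238360-87238429 on the plus strand, opposite Il1rapl1, a synaptic adhesion receptor of the IL-1 receptor family.

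The other 8 ran opposite Iqcg and the overlapping Gm17106 (7165 tags), Rsph3b (7077), Sspn (6963), Arhgap21 (6782), Jarid2 (6663), Rsph3a (6643), Dnah7b (6634) and Mphosph8 (6513). Iqcg, Rsph3a, Rsph3b and Dnah7b encode parts of cilia and flagella, Sspn a membrane protein of muscle, Arhgap21 a GTPase-activating protein, Jarid2 a cofactor of Polycomb repressive complex 2 and Mphosph8 a subunit of the HUSH silencing complex. Rsph3a and Rsph3b are near-identical copies, so the tags of either region may belong to the other. The level of the opposite gene varied widely: Dnah7b and Il1rapl1 were listed at 0 in all 8 libraries, Itga9 had a mean of 5.18, Gnb1l of 219.8, and Jarid2, Arhgap21 and Atf2 of 2585, 2251 and 2109 normalized counts. High antisense tags were found opposite genes that these cells did not express as well as genes that they did.

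Among antisense regions of at least 100 tags, the 5 lowest differences ran from -0.67 to -0.61. They lay opposite 1700049J03Rik (164 tags), Il1rapl1 (141 tags, in the same locus as the strong region above), 4930557F10Rik (320 tags, over the tRNA gene n-TAagc11), Tarm1 (135 tags), an activating receptor of neutrophils, and Wipi1 (135 tags), an autophagy protein. Of these only Wipi1 was expressed, at a mean of 504.7 normalized counts. The 5 highest differences ran from 0.54 to 0.57. Both top ones lay opposite Camk2b, a subunit of calmodulin-dependent kinase II, with 819 and 451 tags. Those opposite Btbd3, Baz1a (a chromatin remodelling subunit) and Gm20388 had 220, 226 and 209 tags, and the last began 218 nt past the table's end of Ankrd11 on the same strand, at a place that RefSeq's Ankrd11 covers.

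The regions differed in their spacing. Joined into loci wherever the gap between neighbours on a strand was at most 2000 nt, they gave 17581 loci. Regions alone in their locus numbered 13548 (46.9%). They had a median of 50 tags, 57.9% were in the lower state and 1.17% in the upper state, and their median difference was -0.18. Regions in the 195 loci of 10 or more numbered 5340 (18.5%), with a median of 34 tags, 28.7% in the lower and 13.8% in the upper state and a median difference of -0.02. Between these ends lay 7910 regions in loci of 2 to 4 and 2104 in loci of 5 to 9, with 42.2% and 33.9% in the lower state. That share thus fell step by step with the size of the locus. A change of state within a cluster starts a new region, however, so the size of a locus partly counts changes of state. The 2 measures are therefore not independent. The median distance back to the end of a same-strand gene was 83654 nt for lone regions and 21116 nt for those in dense loci. The highest bin held a multiple of 5 tags in 82.2% of lone regions and in 43.5% of dense ones, and the file's header does not say whether a tag value counts reads or sums coverage over the bases of a bin. Mutations followed no such order: they came to 1.25 per 1000 tags in lone regions, 1.55 in loci of 2 to 4, 1.97 in loci of 5 to 9 and 0.666 in dense loci.

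**Figure D2:**
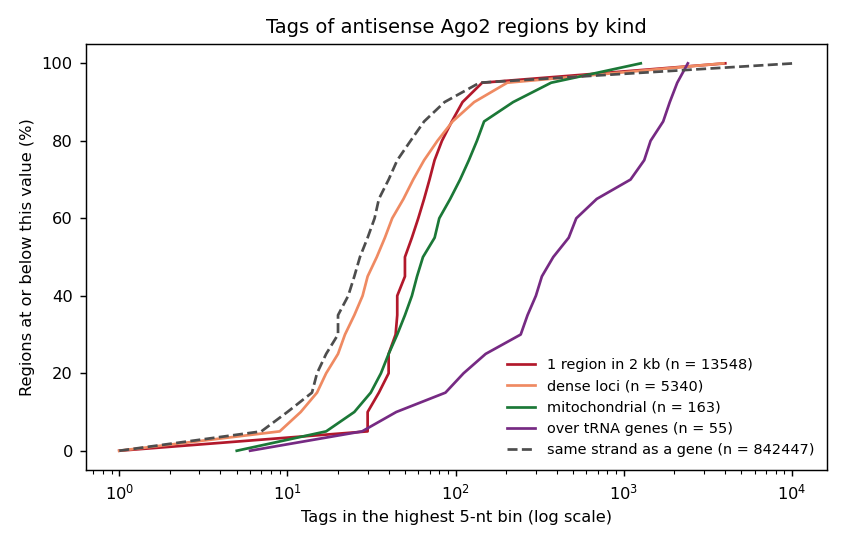
Percentiles of tags in the highest bin (log scale) for lone antisense regions, regions of dense loci, mitochondrial antisense regions, those over nuclear tRNA genes and, dashed, regions in a gene on the same strand. Over most percentiles the curve for tRNA genes lies farthest to the right, with a median of 381 tags.

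The longest locus followed Rpe, which encodes the ribulose-5-phosphate epimerase of the pentose phosphate pathway. It began 15 nt past the annotated end of Rpe, ran over 42180 nt (chr1:66719820-66761999, plus strand) and held 294 regions of up to 662 tags. The gene opposite was Kansl1l, with a mean of 170.5 normalized counts, and Rpe itself had 1816. RefSeq's Gm46093 overlaps the locus on the same strand. In this locus 84 regions were in the lower state, 180 in that of no difference and 30 in the upper state. The next, with 211 regions over 13655 nt (chr3:84801555-84815209, plus strand), ended 59 nt before the table's start of Fbxw7, a ubiquitin ligase subunit with a mean of 8133, and RefSeq's Fbxw7 covers part of it. The main gene opposite, Gm37240, is a model that spans chr3:84496426-85887518 and had a mean of 0.1. Other genes that may also lie opposite this locus were not listed.

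A minority of dense loci lay close behind an expressed gene. Of 195, 41 began within 1000 nt, and 55 within 10000 nt, of the end of a same-strand gene with a mean of at least 10. Among these, 107 regions followed Zfp800, a zinc finger gene, from 33 nt past its end in the table, 46 followed Ttc33 from 89 nt, and 41 followed Atxn7l1, a relative of a subunit of the SAGA complex, from 35 nt. RefSeq's own Zfp800 and Atxn7l1 overlap these loci on the same strand, so by RefSeq they lie at least partly within those genes. RefSeq genes of known strand overlapped 36 dense loci on their own strand. Another 96 lay more than 10000 nt past the end of any same-strand gene of the table and had no such RefSeq gene. One of these, opposite Camk2b (chr11:6005650-6012689, plus strand), held 68 regions of up to 1514 tags, 25 in the upper state and 6 in the lower. Another, opposite Cep85, a centrosomal protein gene, held 93 regions, 32 in the upper state and 12 in the lower. A further one, opposite Coro2a, which encodes an actin-binding coronin, held 105 regions of up to 1264 tags, 26 in the upper state and 17 in the lower. Others of this kind went the other way. The locus opposite Armc9 held 92 regions, 10 in the upper state and 27 in the lower. That opposite Bcar3 held 51, 2 in the upper state and 19 in the lower. Over the regions of all dense loci, 13.8% were in the upper state and 28.7% in the lower.

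Near Pou2af1, the B cell coactivator OBF-1 with a mean of 63019 normalized counts, a locus of 96 regions opposite Colca2 began 30015 nt past its end and stopped 64 nt before 2010007H06Rik, and a locus of 124 regions opposite 1810046K07Rik began 5455 nt past the end of that noncoding gene. RefSeq places Gm32819 on the same strand in both. Both opposite genes were near 0, at means of 1.49 and 0.1. A locus of 53 regions with up to 1701 tags on chromosome 1 lay opposite a row of gene models (Gm28439, Gm10222, Gm28438, Gm28437, Gm10925, Gm28661 and Gm29216) that are nuclear copies of mitochondrial DNA, so its tags may belong to mitochondrial RNA.

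**Figure D3:**
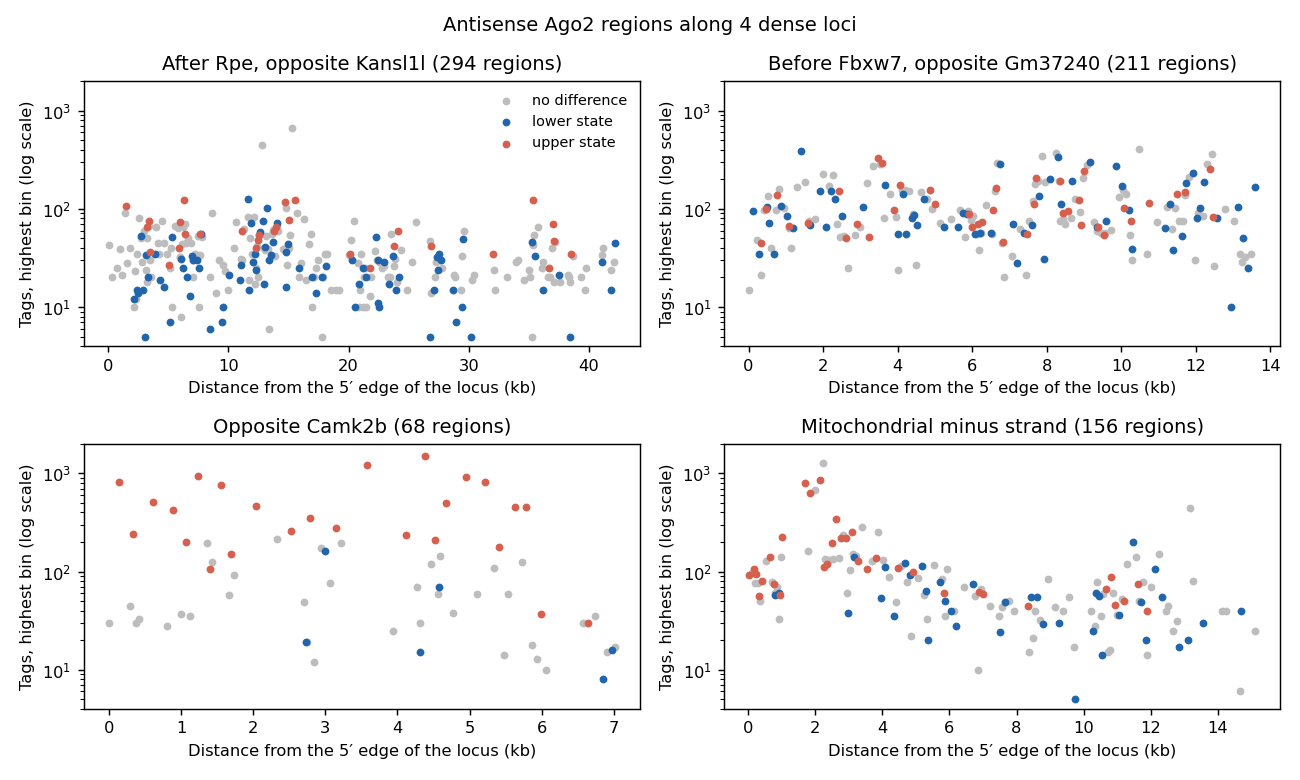
Tags in the highest bin (log scale) of each antisense region against its distance (kb) from the 5′ edge of 4 dense loci, coloured by dCLIP state. Upper state regions are common among the strong regions opposite Camk2b and near the 5′ edge of the mitochondrial minus strand.

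Across all antisense regions, 2055 (7.11%) began within 1000 nt past the end of a same-strand gene and 15372 (53.2%) more than 50000 nt past one. The gene behind had a mean of at least 10 for 71.9% of regions between 1000 and 5000 nt past it, for 39.9% of those within 1000 nt and for 31.4% of those beyond 50000 nt, where 30.6% of all rows of the table had such a mean. The lower state held 35.2% of regions within 1000 nt and 50.1% of those beyond 50000 nt. As checks of the rule's edges, 27 members wider than 10 nt shared 10 nt or less with the opposite gene (median 54 tags) and 58 regions outside genes lay 10 nt or less from one (median 45 tags).

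RefSeq gave a second look at what runs on the region's own strand. A RefSeq gene of known strand covered 1703 antisense regions (5.89%), 788 in coding and 915 in long noncoding genes. The strand was known for 27024 of 49993 placed RefSeq genes, so same-strand genes may be missed here and in the loci above. Nuclear tRNA genes, which the deposited table does not list, overlapped 55 antisense regions (0.190%), whereas they overlapped 650 of all regions (0.0675%). Of the 143 antisense regions with at least 1000 tags, 17 (11.9%) lay over such a gene, as did 225 (6.62%) of the 3400 regions of at least 1000 tags in all. These 55 regions had a median of 381 tags, and 13 were in the lower, 33 in the middle and 9 in the upper state. RefSeq's table used here gives no strand for tRNA genes. The strongest lay over the glutamate tRNA gene n-TEttc5 (2406 tags, difference -0.01, opposite Btn1a1), the histidine tRNA gene n-THgtg2 (2160 tags, opposite BC107364) and the glycine tRNA gene n-TGgcc2 (2109 tags, opposite Clec18a). Glycine tRNA genes held 7 regions with a median of 1862 tags, and valine tRNA genes 10 with a median of 262.5. Since tRNA genes occur in many near-identical copies, the tags of 1 copy may come from another.

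The mitochondrial genome carried the highest proportion of antisense regions, 163 of its 337 (48.4%), but these held 2.38% of its tags. Its 2 strands are each transcribed in full, and nearly all mRNA is then kept from 1 of them. Of the 163, 156 lay on the minus strand, opposite genes such as mt-Nd5 (26 regions), mt-Cytb (21), mt-Nd4 (17) and mt-Nd1 (14), which encode subunits of respiratory complexes I and III. The strongest, with 1263 tags and a difference of -0.02, lay opposite mt-Nd5 at chrM:12920-12974. In all 41 (25.2%) were in the lower and 36 (22.1%) in the upper state, the latter above the share of 9.28% over all regions. That share depends on tags, and the median here was 64 tags. From 50 to 100 tags the upper state held 17.0% of all regions and 4.70% of antisense ones. From 100 to 200 tags it held 23.0% and 7.22%. Of the 26 opposite mt-Nd5, 11 were in the upper state and 2 in the lower.

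Annotated miRNA hairpins touched few antisense regions. On the same strand, 3 regions of 622, 224 and 60 tags overlapped the hairpin of Mir703 at chr5:98475556-98475664, which the table does not list, opposite 1700007G11Rik. Only the edges of the mature miRNA were covered, by 4 and 2 bases. A region of 55 tags at chr13:48537910-48537929 shared 8 bases with the hairpin of Mirlet7f-1 and 1 with mature let-7f-5p, opposite Gm24111, a miRNA gene model on the other strand. On the opposite strand, 100 tags lay over the hairpin of Mir6541, inside Wdfy2, and 185 over the hairpin that RefSeq gives for miR-3535, inside Ncl, where the table has the gene Gm24148. The mature sequences are shown with the seed in capitals because they tell these small RNAs apart, and no 2 of them share a seed.
miR-703: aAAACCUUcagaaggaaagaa
let-7f-5p: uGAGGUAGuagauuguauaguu
miR-6541: cACAGGCAaggacuucucaag
miR-3535: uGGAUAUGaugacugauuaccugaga

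Of other small or special classes, 7 antisense regions lay opposite snoRNA genes, the strongest with 488 tags opposite Gm25436 in the Igkv cluster. None lay opposite an snRNA gene or a nuclear rRNA gene. Opposite antibody gene segments there were 12, at most 183 tags, opposite Igkv5-48. Opposite processed pseudogenes there were 145, at most 4258 tags, opposite Gm12895 at chr4:122455215-122455344. Opposite long noncoding genes there were 2700, at most the 7165 tags shared by Iqcg and Gm17106.

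Protein-coding genes were the main gene opposite for 25806 antisense regions (89.3%), and lincRNA genes for 1391 (4.81%). At least 1 antisense region ran opposite 7604 coding genes, 35.1% of those in the table. These were long genes: the span of those that were the main gene opposite had a median of 51764 nt, against 17215 nt over all coding genes. Of the regions, 3.71% lay within 1000 nt of the start of the opposite gene and 3.53% within 1000 nt of its end, where 2.80% would lie at either end if regions were spread evenly along the same genes. A further 66.2% lay more than 10000 nt from both ends, beside 67.0% of the length. The regions were thus spread nearly evenly along the genes, with slightly more at both ends.

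The 15 coding genes opposite the most antisense tags, summed over all bins, were Jarid2, Arhgap21, Sspn, Camk2b, Gm37240, Gnb1l, Fgfr2, Rsph3b, Atf2, Dnah7b, Tmtc2, Cep85, Itga9, Kansl1l and Mphosph8. A few strong regions gave the tags of most of them: Jarid2 had 13 regions and Gnb1l 7, whereas Kansl1l had 297 and Gm37240 had 239 weaker ones. Fgfr2, a fibroblast growth factor receptor listed at 0 in all 8 libraries, had 56 regions of up to 5502 tags, but the table's span for it (chr7:130162451-133123350) takes in many other genes. Tmtc2, an endoplasmic reticulum mannosyltransferase gene with a mean of 115.6, had 17 of up to 4179 tags.

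Lists of genes for this tissue, chosen with earlier results of these data known, were counted against the 35.1% of all coding genes that had an antisense region. A list's share is a description, with no allowance for the length of its genes. Among 19 B cell identity genes, 7 (36.8%) had an antisense region, close to that share, and none of these regions was over 100 tags. Ebf1, a founding transcription factor of the B lineage, had 11 regions of up to 100 tags, Bank1 had 4 of up to 70, Ikzf3 5 of up to 60 and Cd74 1 of 50. Among 23 genes known as off-target loci of the antibody mutator AID, 11 (47.8%) had one, led by Ets1 (8 regions, up to 265 tags), Bcl2l1 (6, up to 189) and Bach2 (6, up to 117). None of 10 antibody constant region genes had one. Of 12 germinal centre genes 5 (41.7%) had one, led by Foxo1 with 330 tags and a difference of -0.36, followed by Bach2 (117 tags), Mef2c (100 tags), Bcl6 (60 tags) and Cxcr5, which the naming rule left out and which was named after its values were seen.

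Among 15 genes of the Argonaute and miRNA machinery, 11 (73.3%) had an antisense region, led by Tnrc6b, a GW182 scaffold of silencing (19 regions, up to 113 tags), beside Dicer1 (75 tags), Xpo5 (64) and Tnrc6a (92). Of 10 genes followed as miRNA targets 6 had one, among them Foxp1 (16 regions, up to 98 tags), Bbc3 (8, up to 58), Arid1a (4, up to 55) and Kit (5, up to 197, with a difference of -0.46). Of 10 plasma cell genes 4 had one: Creb3l2 (120 tags), Jchain (145), Prdm1 (55) and Ell2 (32). Of 19 cytokine and CD40 signalling genes 8 had one, led by Nfkb1 (190 tags, difference -0.24), with Rel, Relb and Jak1 at 83, 65 and 65. Of 13 genes that sense or edit double-stranded RNA, which sense and antisense RNA could form together, 5 had one: Ddx58, the sensor RIG-I (8 regions, up to 55 tags), Oas2 (85), the editing enzyme Adarb1 (76), Oas3 (60) and Mavs, the adaptor of RIG-I, likewise named after its values were seen. Apart from the mitochondrial genes, all 15 of which had antisense regions, the genes of these lists had at most 330 antisense tags, beside the 6513 to 9262 tags of the 12 strongest regions.

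The last question was whether genes opposite antisense regions differed in RNA level between KO and Flox. By limma-trend on log2(normalized count + 1), 3 of 5144 tested opposite genes passed a Benjamini-Hochberg adjusted p of 0.05 (0.0583%), where 9 of all 13091 tested genes did (0.0687%). Ppp1r16b and Dnmt3c were higher and Tnfrsf26 was lower in KO. DESeq2 on the recovered reads called 98 of 7108 opposite genes and 195 of all 22944 genes it was given (0.85%). With 3 opposite genes called by limma, its 2 shares cannot be told apart. The DESeq2 share was larger among opposite genes, but DESeq2 was given genes below the minimum mean that limma required. Of the genes given to DESeq2, limma tested 5144 of the 7108 opposite ones and 13091 of all 22944. Opposite genes thus reached that mean more often, and the DESeq2 shares cannot separate this from a difference between the genotypes. edgeR called the same 3 opposite genes as limma. At an unadjusted p under 0.05, 16.6% of opposite genes and 15.1% of all tested genes passed. Whether the RNA-seq counting kept the strand was not given in the sources used here, so reads of an antisense RNA may be counted to the gene opposite.

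Ppp1r16b encodes a regulatory subunit of protein phosphatase 1. The KO libraries 1 to 4 had 9839, 9496, 12474 and 10050 normalized counts, and the Flox libraries 1 to 4 had 4875, 4684, 5003 and 5019. Every KO library was above every Flox library, and limma gave a log2 fold change of 1.09 with an SE of 0.09 and an adjusted p of 0.00037 (n = 4 and 4). Opposite it lay 2 lone regions on the minus strand, of 57 tags (chr2:158700950-158700984) and 65 tags (chr2:158764815-158764854). Both were in the lower state, with differences of -0.15 and -0.39.

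Tnfrsf26, a member of the TNF receptor family, had 429.1, 356.0, 469.4 and 324.4 normalized counts in the KO libraries, in order, and 1309, 1670.0, 1526 and 1656 in the Flox libraries. The groups did not overlap, and limma gave a log2 fold change of -1.97 with an SE of 0.13 and an adjusted p of 3.86e-05 (n = 4 and 4). Its 2 antisense regions, of 64 and 45 tags, lay on the plus strand 865 and 748 nt inside the start of the gene, both in the lower state, with differences of -0.31 and -0.17.

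Dnmt3c, a DNA methyltransferase of the male germ line that arose as a copy of Dnmt3b, had 44.4, 22.2, 32.4 and 23.5 normalized counts in the KO libraries, in order, and was listed at 0 in all 4 Flox libraries. Its KO mean was at least 42.8-fold higher than the 3 reads over the Flox group that a count of 0 allows, with a limma adjusted p of 0.0014, and 0.137 without KO 1 and KO 3. Its 2 antisense regions, of 135 tags (chr2:153708635-153708679, difference -0.47) and 215 tags (chr2:153725760-153725794, difference -0.26), were also in the lower state. Opposite these 3 genes, which move in different directions between the genotypes, all 6 antisense regions thus had differences below 0. Most antisense regions did: the upper quartile of their differences was -0.0066, and 46.5% of them were in the lower state.

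**Figure D4:**
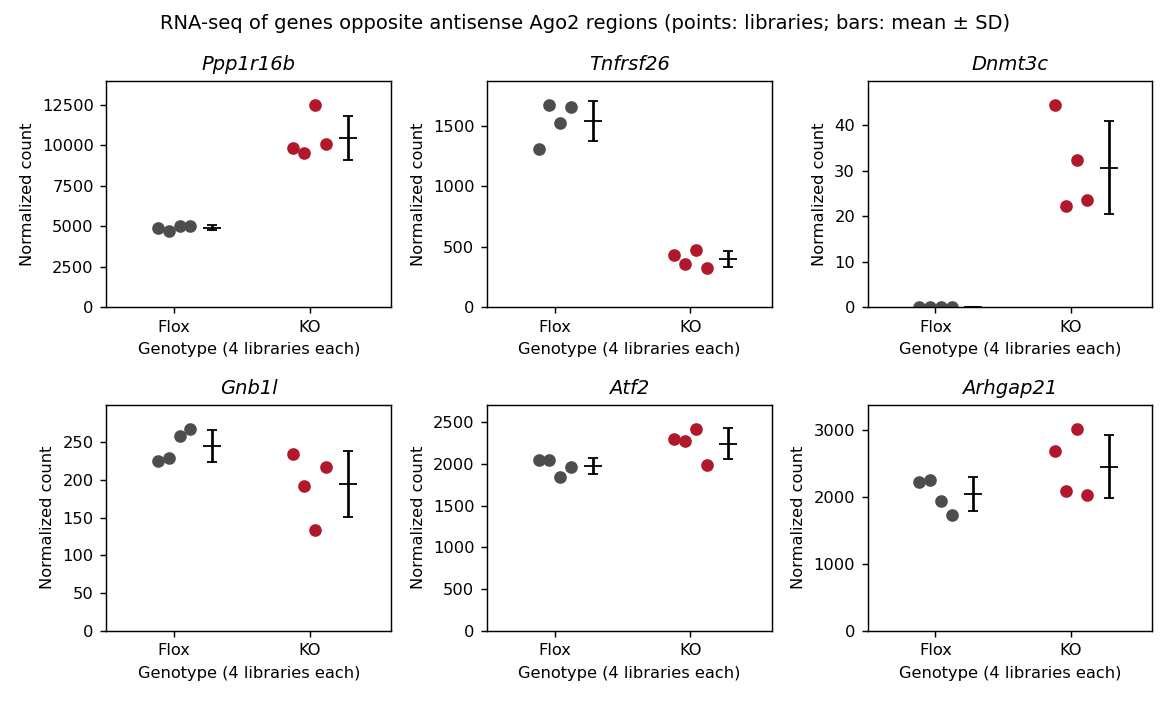
RNA-seq normalized counts in the 4 Flox and 4 KO libraries (points) with mean ± SD (bars) for the 3 genes past the threshold (top) and 3 genes opposite regions with the most tags (bottom). The groups do not overlap for Ppp1r16b, Tnfrsf26 and Dnmt3c, and overlap for Atf2, Arhgap21 and Gnb1l.

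Of the 12 main genes opposite the strongest regions, 9 were tested and none of these passed the threshold. As 0.0687% of all tested genes passed it, none of so few is no result about these genes. Itga9, Dnah7b and Il1rapl1 were below the mean of 10 and not tested. Gnb1l had 234.6, 191.7, 134.1 and 217.5 normalized counts in the KO libraries, in order, and 225.4, 229.5, 258.2 and 267.6 in the Flox libraries. Its log2 fold change was -0.36 with an SE of 0.18, and limma's adjusted p was 0.36. Atf2 had a KO mean of 2244 ± 185 and a Flox mean of 1974 ± 97.2 (SD, n = 4 each), with a limma adjusted p of 0.34. Arhgap21 had 2458 ± 478 and 2043 ± 252, with a limma adjusted p of 0.39. In each of these the groups overlapped.

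The median log2 fold change was 0.04 over the 5144 opposite genes and -0.01 over all 13091 tested, and 58.1% and 48.5% of them were above 0. Gene length moved with this. Among the longest 20% of tested genes, with spans over 59367 nt, the median was 0.12 in 2149 opposite genes and 0.07 in 459 with no antisense region. Among the other 80% it was -0.00 in 2995 and -0.05 in 7434. The part of gene length in the difference between opposite and other genes was not otherwise tested. Of the 10 lists, none had a gene past the limma threshold, which 0.0687% of all tested genes passed. An unadjusted p under 0.05, which 15.1% of all tested genes had, was found for 10 of 14 tested genes of the miRNA machinery, 5 of 9 followed targets, 5 of 10 germinal centre genes, 7 of 19 B cell identity genes, 6 of 22 AID off-target loci and 5 of 19 signalling genes. It was found for 2 of 9 plasma cell genes, 2 of 9 mitochondrial genes, 1 of 10 antibody constant region genes and none of 11 double-stranded RNA genes. The lists were chosen with earlier results of these data known, and gene length was not allowed for. These counts therefore describe the lists and are no test of them. The list medians of the log2 fold change ran from -0.02 (plasma cell) to 0.45 (mitochondrial), beside -0.01 over all tested genes. In the authors' own comparison the followed targets Foxp1 and Arid1a were under an FDR of 0.05. Their FDR values there were 0.025 and 0.031, with log2 fold changes of 0.53 and 0.48. Limma's adjusted p was 0.24 for both, so neither passed here. The share of all genes under the authors' FDR was not counted, but DESeq2 on the recovered reads called 0.85% of all genes.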

How the data were processed

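The deposited RNA-seq table holds gene counts that the authors scaled per library (the unit is thus a signal, not counts), with their log2 fold changes and FDR p-values. At least 99.9% of values were whole reads within 0.1 read. The deposited dCLIP output gives whole-number tags and mutations per 5-nt bin, pooled over libraries and summed here over both conditions, with a difference score and a state. Each region also has a score in the deposited summary. The 13147668 bins joined into 962700 regions, which all matched the summary, and 247 on unplaced sequence were left out. The labels name mm9, but positions are those of GRCm38. Of 32607 genes matched by symbol to RefSeq (GRCm38.p6), 99.8% overlapped its span. The authors' aligner settings and roles of their tools were not given in the sources used here.

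Region and opposite gene had to share 1 base (pyranges 0.1.4). RNA-seq used limma 3.58.1 (genes with a mean of at least 10, pseudocount 1), with edgeR 4.0.16 and DESeq2 1.42.0 as alternatives, and was tested on simulated data. As the labels do not say that libraries came from separate mice, p-values cover the spread between libraries, which may be technical. Where several genes lay opposite, a coding gene came first, then the one with the highest mean. Named were the 12 regions with most tags, the 5 lowest and 5 highest differences from 100 tags up, the strongest opposite each gene class from 20 tags up, the genes opposite these, the 15 coding genes opposite most tags, miRNA genes from 50 tags up, genes past the threshold and up to 4 genes per list. From the B cell lists 1 gene is not reported here. Members, lists and rules were chosen with earlier results of these data known, and the joining of loci, the RefSeq comparison and the tag classes after seeing the values.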

Additional observations from a re-analysis of the deposited data

Results flagged for a closer look

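In 105 groups of 4 libraries (the genes named above with a mean of at least 10), 1 library lay far from the other 3 by Dixon's criterion in 6, and chance flags about 1 in 20. Camk2b was low in KO 2 at 49.6 normalized counts, with the nearest other KO library at 100.8. Kansl1l was high in Flox 1 at 157.8, with the next at 139.5. Kit was high in KO 1 at 49.7, with the next at 16.2. Ell2 was high in Flox 1 at 3159 (next 2830), Foxo1 was low in Flox 2 at 4044 (next 4386) and Mef2c was high in KO 3 at 54334 (next 43222).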

How the results depend on the processing

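The number of antisense regions stayed within 1.5 times of 28902 under every alternative run except a summary score of at least 5. That left 6102, all in a differential state (100%) and with 1.48% of tags. The named regions in the state of no difference had a score of 0, so this 100% may follow from the score itself. The share of antisense regions in a differential state (51.9%) was 55.2% from 20 nt of width, 52.6% and 53.5% from 1000 and 10000 nt off same-strand genes, 51.2% with coding gene rows only and 25.9% with a mean difference of at least 0.25. The tag share (3.08%) was 3.05% both inside the opposite span and from 20 nt of width, 2.72% and 2.17% from 1000 and 10000 nt, 4.38% with coding rows and 2.81% with rows with a read. The count of opposite genes past the threshold (3) was 98 by DESeq2, the cause of which was not tested. Leaving out 1 library gave 3 to 7, the 7 without KO replicate 2, when Foxp1, Ablim1, Ryr2 and Gm17767 were added. Over all tested genes, same-numbered KO and Flox libraries deviated with correlations from -0.09 to 0.00. These show no pairing by number over genes at large but cannot exclude one. With the replicate block 4 genes were called, Ryr2 being added. Without KO 1 and KO 3, 2 were called. The pooled CLIP values have no replicate error, and the region edges resolve to 5 nt.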
